A study of Homo sapiens with 2 samples.

Results

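TCF4 peaks that lie upstream or downstream of their assigned gene, on chromosomes other than 3 and 18, are described here. They were the rows of the authors' peak table whose deposited position class was upstream or downstream, with each interval counted once, and the rule used no read count. The rule found 206 of 661 peaks (31.2%), 105 upstream and 101 downstream, assigned to 113 genes on 21 chromosomes. From TMD8, a human cell line of the activated B cell-like (ABC) subtype of large B-cell lymphoma, 2 libraries were analysed: a TCF4 ChIP library and an input library made from whole cell extract. Both came from cells carrying a tetracycline-inducible TCF4 construct and given 60 ng/ml doxycycline for 24 hours. Per the series' design text, this line lacks extra copies of the TCF4 gene. Since no uninduced library was analysed here, binding of the induced protein and binding of endogenous TCF4 cannot be told apart. The table holds peaks that the authors linked to genes of a TCF4 signature, so a gene without a peak in it cannot be called unbound.

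TCF4, also called E2-2, is a basic helix-loop-helix factor of the E protein family, which binds DNA as a dimer at E-box motifs of the form CANNTG. E proteins are known for their roles in B lymphocyte and plasmacytoid dendritic cell development. Sites outside genes can belong to distal enhancers, which act on promoters over long distances, or to promoters themselves. A gene name in the table is the authors' assignment of a peak and does not show that the peak acts on that gene.

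Peaks next to a transcription start site (TSS) were rare among these regions. The authors' promoter class held 4 of 206 peaks (1.94%, exact binomial 95% interval 0.532 to 4.90), against 21 of 224 intragenic peaks off chromosomes 3 and 18 (9.38%, 5.90 to 14.0). For the 101 downstream peaks the whole gene lies between peak and TSS, so the low share follows in part from the position class. NCAPG2, which encodes a subunit of the condensin II complex, had the peak closest to a TSS, at chromosome 7 from 158497501 to 158498326 (hg19), with 203 ChIP reads and 15 input reads. Its distance to the TSS, which the authors measured from a partner region, was 468.5 bp. KIAA0040 had the next closest, 786.5 bp away at chromosome 1 from 175162451 to 175163251, with 75 ChIP and 22 input reads. With a peak of 825 bp, the nearer edge at NCAPG2 would lie 56 bp from the TSS if centred on its partner region, whose centre was 76 bp away. At KIAA0040 that edge would lie 386.5 bp away. The RefSeq promoters of these genes are shown because no other peak of the set had a deposited distance to the TSS under 1000 bp. Each runs 5′ to 3′ from 250 bases before to 50 bases after the RefSeq start, in the GRCh38.p14 build, and capitals mark every CANNTG. The NCAPG2 window is chr7:158704755-158705054 and the KIAA0040 window chr1:175192938-175193237, both on the minus strand.
NCAPG2: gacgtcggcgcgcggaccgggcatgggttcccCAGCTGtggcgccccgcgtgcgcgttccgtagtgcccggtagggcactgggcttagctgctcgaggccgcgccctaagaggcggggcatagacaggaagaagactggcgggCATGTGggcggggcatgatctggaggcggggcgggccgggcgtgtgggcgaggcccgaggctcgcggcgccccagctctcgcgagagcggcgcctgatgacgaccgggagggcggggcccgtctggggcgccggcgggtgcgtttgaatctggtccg
KIAA0040: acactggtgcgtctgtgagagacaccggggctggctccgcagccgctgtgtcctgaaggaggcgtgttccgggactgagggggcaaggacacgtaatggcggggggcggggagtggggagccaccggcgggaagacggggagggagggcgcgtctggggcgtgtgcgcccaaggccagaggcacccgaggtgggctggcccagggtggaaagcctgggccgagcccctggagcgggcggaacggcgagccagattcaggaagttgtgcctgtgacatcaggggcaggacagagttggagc
The NCAPG2 window held 2 E-boxes, 1 of them CAGCTG, and the KIAA0040 window held 0. The peaks and the promoters were not placed on the same coordinates, because the builds differ. If the RefSeq start is the authors' TSS, a KIAA0040 edge 386.5 bp upstream would lie outside that window, which begins 250 bases before. A link between E-box counts and enrichment was not tested. Enrichment was 17.7-fold at NCAPG2 (95% interval 10.5 to 32.3) and 4.46-fold at KIAA0040 (2.74 to 7.54), so these intervals did not overlap. A fold here is ChIP reads over input reads times the authors' library scaling of 1.31. Its exact (Clopper-Pearson) interval covers only the counting error of independent reads, and reads copied by PCR are not independent.

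E-boxes are common in promoters. Of 131 RefSeq promoters found for 86 of the 113 genes, 61.8% held CANNTG, against 68.7% of 35116 promoters of all genes. CAGCTG was in 23.7% of the first set and 17.9% of the second. CAGGTG on either strand was in 15.3% of the first set and 20.6% of the second. Both strands were searched, and every match of the more specific motifs is also a match of CANNTG. All but 4 of the peaks lay outside the promoter class, so these letters describe the genes and not the bound regions. The hg19 sequence under the peaks was not used here.

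The regions held 22559 ChIP reads and 3861 input reads in all, a summed enrichment of 7.65-fold (7.39 to 7.92). A peak held 71.5 ChIP reads at the median, from 15 to 631, and 16 input reads, from 2 to 79. Enrichment ran from 2.42 to 36.0-fold around a median of 6.43-fold. Its quartiles were 4.86 and 8.72. The lower bound of the interval was above 1 in 206 of 206 peaks, against 99.8% over all 661. It was above 2 in 182 peaks (88.3%), against a background of 85.5% over all 661 peaks. A fold of 10 or more was reached by 40 peaks (19.4%), against 18.3% over all peaks. Both shares were near the background. The authors called the peaks on the same libraries, so none of these counts tests enrichment independently.

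**Figure D1:**
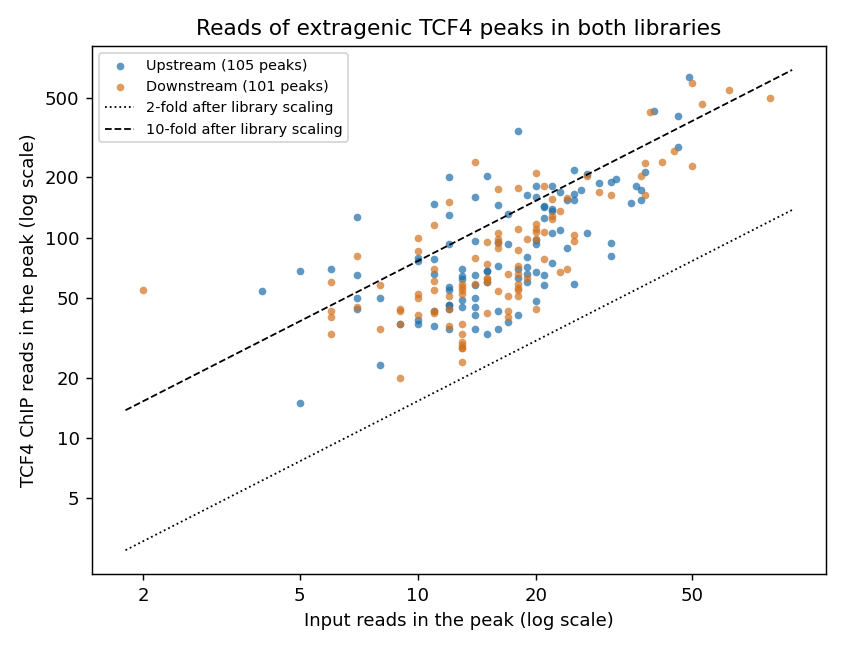
ChIP reads against input reads in each of the 206 extragenic peaks, both on log scales, with upstream peaks in blue and downstream peaks in orange. Lines mark 2-fold and 10-fold enrichment after library scaling: every peak lies above the 2-fold line, and 40 reach the 10-fold line.

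Upstream and downstream peaks were alike in number. Upstream peaks made up 51.0% (43.9 to 58.0) of the set. The 105 upstream peaks had a median of 76 ChIP and 17 input reads, and the 101 downstream peaks 67 ChIP and 16 input reads. Median enrichment was 6.25-fold upstream (5.57 to 8.02) and 6.55-fold downstream (5.62 to 7.27), with intervals from order statistics that treat peaks as independent. Summed over reads, enrichment was 7.76-fold upstream (7.39 to 8.14) and 7.54-fold downstream (7.18 to 7.92). Median width was 555 bp upstream (493 to 650) and 485 bp downstream (442 to 575). The intervals overlapped for each of these measures. A fold of 10 or more was reached by 24 upstream peaks (22.9%, 15.2 to 32.1) and 16 downstream peaks (15.8%, 9.33 to 24.4). These intervals overlapped, and both held the background of 18.3%. No test between the classes was made, since peaks of 1 ChIP and 1 input library are not replicates.

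The position classes differed in distance to the TSS, by construction. Upstream peaks lay 24.9 kb from the TSS at the median (19.1 to 34.4) and downstream peaks 59.8 kb (52.9 to 72.8). A downstream distance runs across the whole gene, whose implied length had a median of 30.9 kb for upstream and 25.1 kb for downstream peaks. Distances, near and far classes and gene borders refer to the transcript the authors assigned to each peak, which could differ within a gene. At MCTP2 the implied length was 47.3 kb for upstream and 185.8 kb for downstream peaks. Measured from the nearer border of the gene instead, the medians were 24.9 kb upstream and 22.7 kb downstream (17.7 to 33.1). Within 50 kb of that border lay 71.4% of upstream peaks (61.8 to 79.8) and 70.3% of downstream peaks (60.4 to 79.0). Within 50 kb of the TSS, in contrast, lay 71.4% of upstream and 37.6% of downstream peaks. Within 10 kb of the border the shares were 23.8% (25 peaks) upstream and 31.7% (32 peaks) downstream, with overlapping exact intervals.

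**Figure D2:**
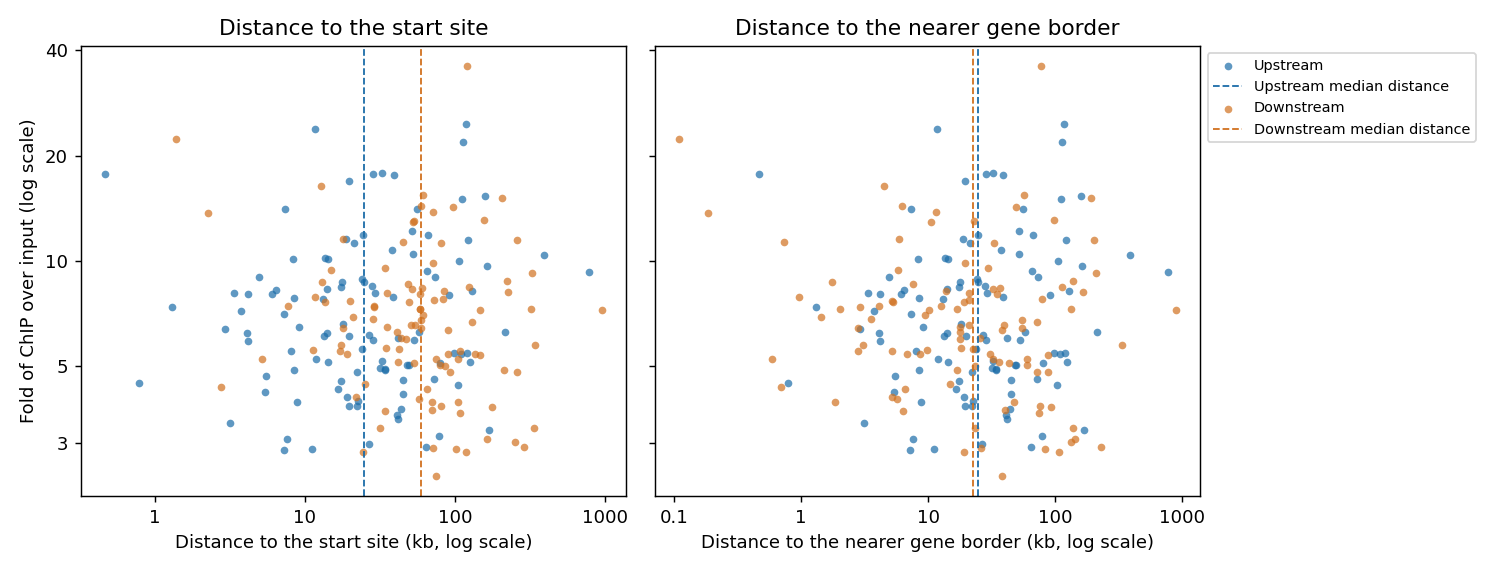
Fold of ChIP over input against distance to the start site (left) and to the nearer gene border (right) for the 206 peaks, all axes log scaled. Dashed lines are the median distances: 24.9 kb upstream and 59.8 kb downstream from the start site, but 24.9 and 22.7 kb from the border.

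Enrichment hardly followed distance. The 113 peaks up to 50 kb from the TSS had a median of 6.26-fold (5.74 to 7.38), and the 93 farther peaks 6.67-fold (5.45 to 7.98). Their median reads were 75 ChIP and 17 input for near peaks, and 70 ChIP and 15 input for far peaks. Spearman's rho between TSS distance and fold was -0.02 over 206 peaks, which share both libraries. It was 0.11 among the 105 upstream and -0.15 among the 101 downstream peaks, weak values of opposite sign. By distance class, the median fold was 12.5 in the 4 peaks up to 2 kb, 6.40 in 26 peaks from 2 to 10 kb and 6.12 in 83 peaks from 10 to 50 kb. It was 6.75 in 49 peaks from 50 to 100 kb and 6.46 in 44 peaks beyond 100 kb. The 4 nearest ranged from 4.46 to 22.3-fold, so their median rests on few and unlike peaks.

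**Figure D3:**
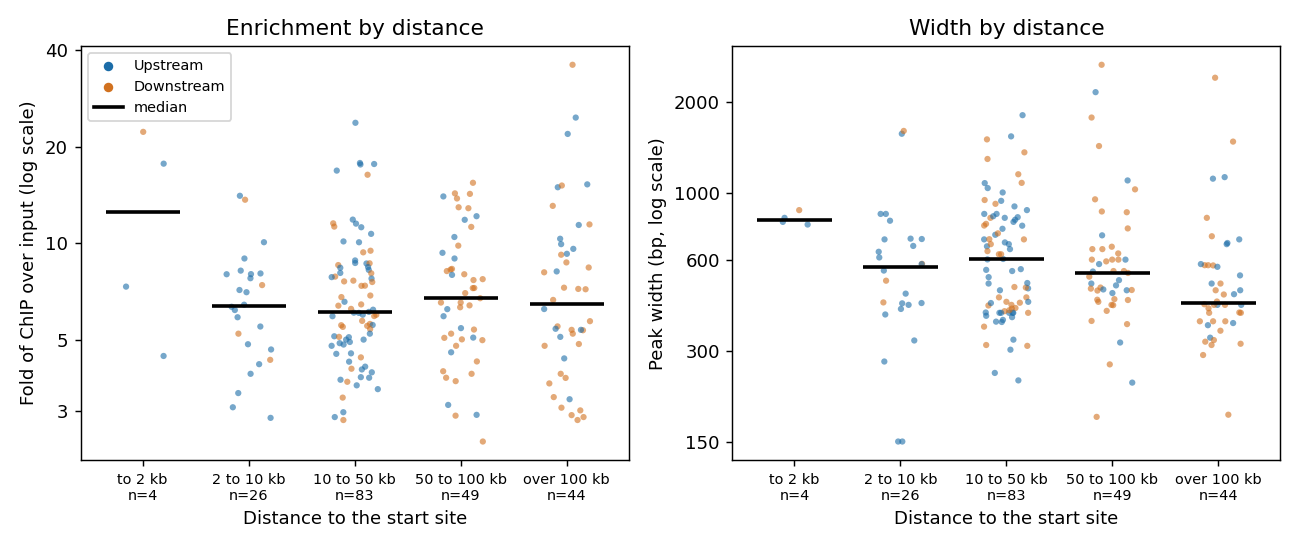
Fold of ChIP over input (left) and peak width (right), on log scales, by distance to the start site, with upstream peaks in blue, downstream peaks in orange and a black bar at each median. From 2 kb outwards the median fold stays between 6.12 and 6.75, while the median width is 601 bp at 10 to 50 kb and 431.5 bp beyond 100 kb.

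Near peaks had the larger median width. It was 601 bp (487 to 675) up to 50 kb and 485 bp (460 to 550) beyond, with overlapping intervals, and rho between TSS distance and width was -0.18. Width itself went with enrichment: rho between width and fold was 0.61 over the 206 peaks. The peaks were called on the same libraries that gave the folds, so width and fold are not independent. The 10 peaks up to 300 bp had a median of 3.72-fold, the 115 peaks up to 600 bp 5.52, the 59 up to 1000 bp 8.02 and the 22 wider ones 9.78. The classes other than that of 300 to 600 bp were chosen after the values were seen. Within the class above 300 and up to 600 bp, the 51 near peaks had a median of 5.12-fold (4.68 to 5.74) and the 64 far peaks 6.25-fold (5.37 to 7.22). Summed over reads, near and far were 5.45 (5.03 to 5.91) and 6.62 (6.16 to 7.11) in that class, and 9.43 (8.56 to 10.4) and 12.3 (11.1 to 13.8) above 1000 bp. Above 600 and up to 1000 bp they were 8.04 (7.50 to 8.63) and 7.74 (6.81 to 8.82), and up to 300 bp, with 5 peaks each, 6.40 (4.92 to 8.41) and 3.03 (2.28 to 4.07). The direction thus differed between width classes.

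Upstream peaks beyond 50 kb stood highest when position and distance were crossed. Those 30 peaks had a median of 8.58-fold (5.45 to 10.3), against 6.12-fold (5.14 to 7.78) in the 75 upstream peaks nearer than that. Downstream, 38 near peaks had 6.64-fold (5.62 to 7.62) and 63 far peaks 6.55-fold (5.24 to 7.27). Summed over reads, the upstream near peaks had 7.33-fold (6.93 to 7.76) and the upstream far peaks 8.98-fold (8.18 to 9.88). Without the peaks of PITRM1, however, these were 7.27 (6.87 to 7.70) and 7.90 (7.14 to 8.75), and the intervals overlapped. The separation of the summed values thus rested on 1 gene.

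Among upstream peaks with at least 10 input reads, the 6 with the highest normalized ratio were named for PITRM1, CDKN3, NCAPG2, IRF4 and MCTP2. PITRM1, a mitochondrial peptidase gene, had the highest, at chromosome 10 from 3332451 to 3333576, with 339 ChIP and 18 input reads and 24.7-fold (15.4 to 42.1), 118 kb from the TSS. A second PITRM1 peak, 39.1 kb from the TSS, held 148 ChIP and 11 input reads, 17.6-fold (9.57 to 36.1). CDKN3, the gene of a phosphatase that acts on cyclin-dependent kinases, had 201 ChIP and 12 input reads from 54749389 to 54750501 on chromosome 14, 21.9-fold (12.3 to 43.2). The IRF4 peak from 370901 to 372705 on chromosome 6 held 631 ChIP reads, the most of any peak in the set, and 49 input reads. MCTP2, a gene of a membrane protein with C2 domains, had 160 ChIP and 14 input reads, 15.0-fold (8.66 to 28.0). This peak lay 111 kb from the start of its assigned transcript, which was not the transcript assigned to the downstream MCTP2 peaks. The intervals of all 6 overlapped, so their order is within counting error.

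The 6 downstream peaks chosen in the same way were named for IFITM1, C12orf45, IER2, BCL2L11, MTMR1 and BANF1. The gene IFITM1, whose membrane protein is induced by interferon, had 238 ChIP and 14 input reads, 22.3-fold (13.0 to 41.3). C12orf45 had 150 ChIP and 12 input reads from 105392623 to 105393401 on chromosome 12, 16.4-fold (9.10 to 32.4). At IER2, an immediate early response gene, 590 ChIP and 50 input reads gave 15.5-fold (11.6 to 21.1) from 13321644 to 13323416 on chromosome 19. MTMR1, a phosphoinositide phosphatase gene, had the single X chromosome peak, with 175 ChIP and 16 input reads and 14.3-fold (8.58 to 25.6). BANF1, which encodes a chromatin-bound protein of the nuclear envelope, had 209 ChIP and 20 input reads and 13.7-fold (8.64 to 22.9). Their intervals also overlapped. The highest fold of the set, 36.0 at ZNF267, rested on 55 ChIP and 2 input reads (9.51 to 305). The 2 peaks at IFITM1 and BANF1 reached across the gene end: their distances to it were 109.5 and 185.5 bp, and the peaks were 875 and 581 bp wide. In no other peak of the set was the distance to the gene border shorter than that from the peak's centre to its edge.

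At the other end, SMC3, a cohesin subunit gene, had the lowest ratio, with 24 ChIP and 13 input reads and 2.42-fold (1.18 to 5.17). BUB3, a spindle checkpoint gene, and PIM1, a kinase gene, each had a downstream peak of 28 ChIP and 13 input reads, 2.82-fold (1.41 to 5.93). Both genes also had strong peaks. The other BUB3 peak, 205.2 kb from the TSS, held 81 ChIP and 7 input reads, 15.2-fold (7.03 to 38.9). Width set further extremes. The 3 widest peaks were those of SYK (2649 bp, 495 ChIP and 79 input reads), XPNPEP1 (2400 bp, 464 and 53) and PITRM1 (2150 bp, 428 and 40). Of the 3 narrowest, NOL8 (150 bp) had 15 ChIP and 5 input reads and CDCA7L (181 bp) had 20 and 9. BLVRA, the biliverdin reductase gene, also had a peak of 150 bp, but with 131 ChIP and 17 input reads. Its ChIP density of 20.1, in the authors' normalized unit, was the highest of the set, and the next were 9.72 each at SPIB and SLC38A1. The input density of this BLVRA peak, 1.99, was also the highest of the set, and its enrichment was 10.1-fold (6.07 to 17.8).

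Several genes carried extragenic peaks in number. Of the 113 genes, 59 had 1 such peak and 54 had at least 2, while 45 had upstream peaks only, 51 downstream peaks only and 17 both. At those 17 genes the strongest peak was upstream in 9. For 52 genes, with 87 of the 206 peaks, the table listed no peak within the gene, and for 61 it listed at least 1. Among these 61 the strongest peak was extragenic in 34. In both counts, strongest means the highest fold, without regard to intervals. The numbers of peaks compared within a gene were not matched. Of 24 genes with at least 3 peaks, the highest fold was over 3 times the lowest in 12. This count ignores counting error. The intervals of the highest and lowest peak overlapped at some of these genes, such as FAM49A, and not at others, such as PITRM1. The spread among peaks of different genes was not set beside it.

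FAM49A and XPNPEP1 had 6 extragenic peaks each. XPNPEP1, a gene of a cytosolic aminopeptidase, had all 6 downstream, 147.0 to 950.1 kb from the TSS, with folds of 2.92 (1.47 to 6.12) to 13.1 (5.68 to 37.1). Summed over reads these gave 8.97-fold (7.43 to 10.9). One of them, at chromosome 10 from 111456801 to 111458276 with 236 ChIP and 38 input reads, was the interval listed under 2 partner regions, and its distance was taken from the partner with the nearer centre. FAM49A, marked Down by the authors, had 4 upstream and 2 downstream peaks over 722 kb, of 3.02 to 10.3-fold. DDX18, a nucleolar RNA helicase gene, had 5 peaks over 820.8 kb of 3.27 to 9.35-fold, and the table listed none inside the gene. SLC38A1, a glutamine transporter gene, also had 5: the 3 upstream peaks held 213, 196 and 136 ChIP reads and 38, 32 and 22 input reads, at 7.34 to 8.10-fold, and the 2 downstream peaks 103 and 67 ChIP reads and 25 and 23 input reads, at 5.40 and 3.81-fold.

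CDCA7L, the gene of a MYC-interacting protein, had 5 peaks that were all weak, with 20 to 66 ChIP and 9 to 19 input reads and folds of 2.91 to 5.24. Their summed enrichment was 3.74-fold (2.87 to 4.92), and that of the 4 upstream peaks of PITRM1 was 14.8-fold (11.9 to 18.6). These were the lowest and highest summed values of the 8 genes with at least 4 peaks. Their intervals did not overlap, but the pair was picked as the extremes. COL6A1, the gene of a collagen VI chain, had 4 downstream peaks within 30.1 kb, of 3.93 to 8.33-fold. MCTP2 had 2 upstream peaks of 15.0 and 11.4-fold and 2 downstream peaks of 7.28 and 4.80-fold.

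**Figure D4:**
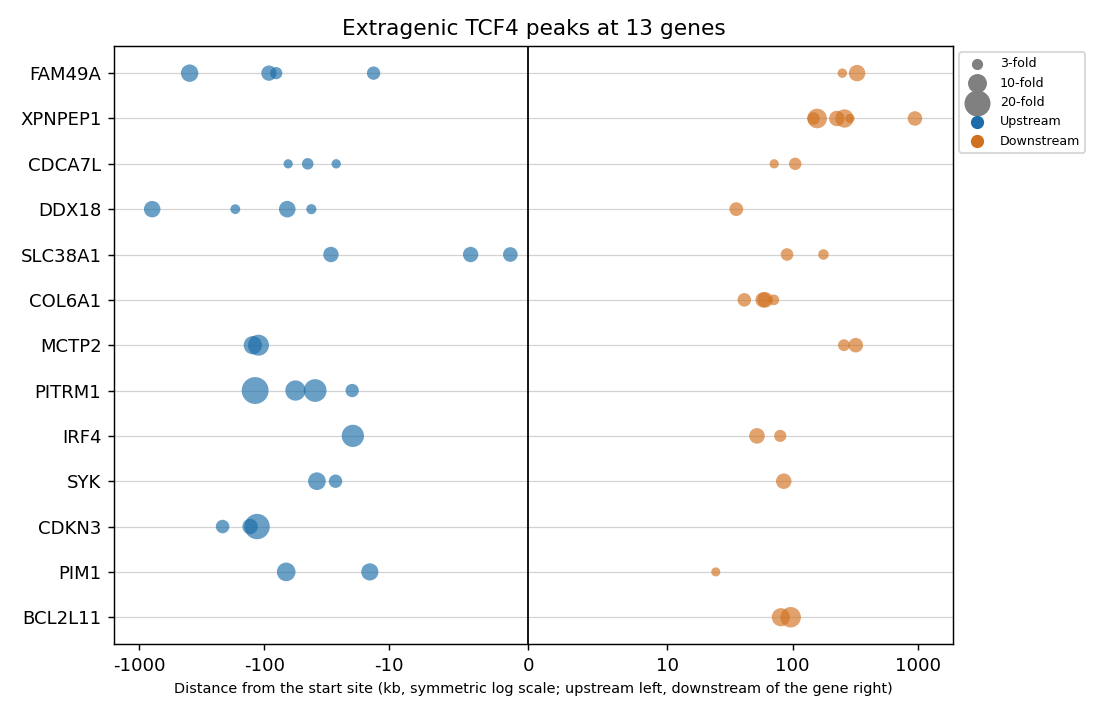
Extragenic peaks of the 8 genes with at least 4 of them and of IRF4, SYK, CDKN3, PIM1 and BCL2L11, placed by distance from the start site (kb, symmetric log scale), upstream in blue to the left and downstream of the gene in orange to the right. Circle area is proportional to fold: all 4 peaks of PITRM1 lie upstream, all 6 of XPNPEP1 downstream, and the 5 circles of CDCA7L are small. Distances refer to the transcript assigned to each peak, which differs between the sides at some genes, such as MCTP2.

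The farthest upstream peaks belonged to DDX18 (784.5 kb from the TSS, 78 ChIP and 11 input reads, 9.29-fold, 4.91 to 19.4) and FAM49A (393.8 kb, 79 and 10, 10.3-fold, 5.34 to 22.4). CDKN3 followed at 214.8 kb with 6.25-fold, DDX18 again at 170.0 kb with 3.27-fold, and PRNP, the prion protein gene, at 163.6 kb with 9.62-fold (6.20 to 15.6). Downstream, the farthest was XPNPEP1 at 950.1 kb, with 33 ChIP and 6 input reads and 7.20-fold (2.98 to 21.0). ZWINT, a kinetochore gene, followed at 344.5 kb with 5.73-fold, AGTPBP1, a tubulin-processing carboxypeptidase gene, at 335.0 kb with 3.32-fold, FAM49A at 327.7 kb with 9.23-fold and MCTP2 at 319.9 kb with 7.28-fold. These folds lay on both sides of the median of 6.43. Whether another gene lies nearer to these peaks could not be read from the table.

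Few neighbouring extragenic peaks lay within 10 kb of each other. Of 93 pairs of neighbouring extragenic peaks of 1 gene, the median gap was 31.9 kb, and 8 pairs were within 10 kb of each other, with the shortest gap, 1475 bp, at COL6A1. The pair there had 8.02 and 8.33-fold. The pair of HADH, a fatty acid oxidation gene, was 2998 bp apart with 7.59 and 13.0-fold, and that of UHRF1, a gene of a factor that maintains DNA methylation, 9534 bp apart with 7.01 and 9.85-fold. By chromosome, 10 held the most peaks, 24 at 12 genes, of which XPNPEP1 and PITRM1 had 10 together, and X held 1.

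Genes of B lymphocyte biology were among those named. The lists used here were written with earlier results of these data known, so their counts are descriptions. Of 24 B lineage transcription factors, IRF4, SPIB and BCL11A had 6 extragenic peaks with a median of 6.66-fold, against 6.36 over all 661 peaks. IRF4, a factor of plasma cell differentiation and ABC-type lymphoma, had a downstream peak of 95 ChIP and 15 input reads at 8.29-fold (4.78 to 15.4) and another of 96 and 25 at 5.03-fold (3.21 to 8.15), beside the upstream peak of 16.9-fold (12.6 to 23.0). The interval of the upstream peak overlapped that of the first and not that of the second. SPIB, an Ets factor gene, had 1 downstream peak of 547 ChIP and 62 input reads, at chromosome 19 from 50939444 to 50940736, 11.6-fold (8.87 to 15.3). BCL11A, a zinc finger repressor gene, had an upstream peak of 46 ChIP and 12 input reads at 5.02-fold (2.62 to 10.4) and a downstream one of 51 and 17 at 3.93-fold (2.23 to 7.26).

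The plasma cell and ABC lymphoma list had IRF4, SPIB and PIM1 among its 25 genes, with 7 peaks and a median of 10.1-fold, against 6.36 over all 661 peaks. The IRF4 and SPIB peaks are the same ones counted in the B lineage list. Of the 25 genes, 7 had any peak in the table. PIM1 had upstream peaks of 181 ChIP and 20 input reads at 66.7 kb (11.9-fold, 7.45 to 19.9) and of 208 and 27 at 14.3 kb (10.1-fold, 6.74 to 15.7). Their intervals lay above that of the downstream PIM1 peak given before. SYK, the kinase next to the B cell receptor, had 10.7-fold (6.86 to 17.5) and 6.12-fold (4.27 to 8.99) upstream and 8.21-fold (6.46 to 10.5) downstream, all overlapping.

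Of 24 apoptosis genes, BCL2L11 was named. It encodes the pro-apoptotic protein BIM and had 425 ChIP and 39 input reads in 1 downstream peak, 14.3-fold (10.3 to 20.4), and 86 and 10 in another, 11.3-fold (5.84 to 24.3). Of 25 cell cycle genes, CDKN3, RFC3 and MYC had 6 peaks with a median of 5.82-fold. The 3 CDKN3 peaks all lay over 100 kb upstream, at 21.9, 8.18 and 6.25-fold, and held 201, 50 and 105 ChIP and 12, 8 and 22 input reads. RFC3, a gene of the clamp loader of DNA replication, had upstream peaks of 37 ChIP and 9 input reads (5.38-fold, 2.55 to 12.7) and 63 and 18 (4.58-fold, 2.68 to 8.23). The peak named MYC, with 42 ChIP and 15 input reads and 3.67-fold (1.99 to 7.12), carried a transcript of CASC11. Its downstream class and distance therefore refer to CASC11 and not to MYC. It was the 1 case of 206 in which the transcript belonged to another gene than the name.

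Germinal centre genes had LMO2 and DENND3 named of 21, both marked Down, with 3 upstream peaks and a median of 3.82-fold. LMO2, a transcriptional adaptor gene, had 35 ChIP and 12 input reads (3.82-fold, 1.94 to 8.08) and 48 and 20 (3.14-fold, 1.83 to 5.59), and neither lower bound reached 2. DENND3 had 154 and 37, 5.45-fold (3.79 to 8.03). Of 30 NF-kB genes, TNIP2, an inhibitor of the pathway marked Down, had 3 peaks of 3.97 to 8.08-fold. IFITM1 was the 1 gene named of 25 interferon response genes. No extragenic peak was named for any of 18 T cell or 16 myeloid marker genes, and no other peak of the table was either. The table holds only peaks linked to signature genes, so this does not show that those genes are unbound. ITGAX, an integrin gene used as a myeloid marker, was not on that list. It had a downstream peak of 51 ChIP and 18 input reads (3.71-fold, 2.13 to 6.75).

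Upstream peaks at genes the authors marked Up held more enrichment, summed over reads, than those at genes marked Down, while the medians overlapped. In all, the 146 peaks of 81 Up genes had 6.37-fold (5.89 to 7.28), and the 60 peaks of 32 Down genes 6.55-fold (5.12 to 7.98). Upstream, the 75 Up peaks had 6.45-fold (5.94 to 8.18) and the 30 Down peaks 5.77-fold (4.94 to 8.03). Downstream, 71 Up peaks had 6.33-fold (5.41 to 7.26) and 30 Down peaks 7.14-fold (5.74 to 8.08). Summed over reads, the upstream peaks had 8.25-fold (7.79 to 8.74) at Up genes and 6.61-fold (6.05 to 7.23) at Down genes, and these intervals did not overlap. Without the peaks of PITRM1 the value at Up genes was 7.79-fold (7.34 to 8.27), still apart, and without those of PITRM1 and CDKN3 it was 7.68-fold, with a lower bound of 7.23 that met the upper bound at Down genes. Downstream, the summed values were 7.40-fold (6.99 to 7.84) at Up genes and 7.90-fold (7.21 to 8.67) at Down genes, with overlapping intervals, and over both sides 7.83-fold (7.51 to 8.15) and 7.23-fold (6.78 to 7.71), which overlapped too. Down genes made up 29.1% of the extragenic peaks (23.0 to 35.8) and 24.6% of the intragenic ones off chromosomes 3 and 18 (19.1 to 30.7).

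Compared with intragenic peaks on the same chromosomes, the extragenic peaks had lower median read densities in both libraries. Median ChIP density was 3.14 (2.91 to 3.38) in the 206 extragenic peaks and 3.61 (3.28 to 3.95) in the 224 intragenic peaks, in the authors' normalized unit, and these intervals overlapped. Median input density was 0.525 (0.494 to 0.553) and 0.593 (0.559 to 0.621), whose intervals did not overlap. Median enrichment was 6.43-fold (5.94 to 7.26) and 6.48-fold (5.88 to 6.96). The 111 extragenic peaks on chromosomes 3 and 18 had a ChIP density of 3.01 (2.79 to 3.27), an input density of 0.546 (0.482 to 0.596) and 6.11-fold (5.36 to 6.92). The lowest ChIP density was 2.01 in the extragenic and in the intragenic peaks, and 2.00 over all 661 peaks. Whether peak calling set a lower limit on ChIP density is not stated. Peaks below such a limit would be missing from every density comparison given here. The part of copy number, open chromatin or read mapping in these densities was not tested.

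**Figure D5:**
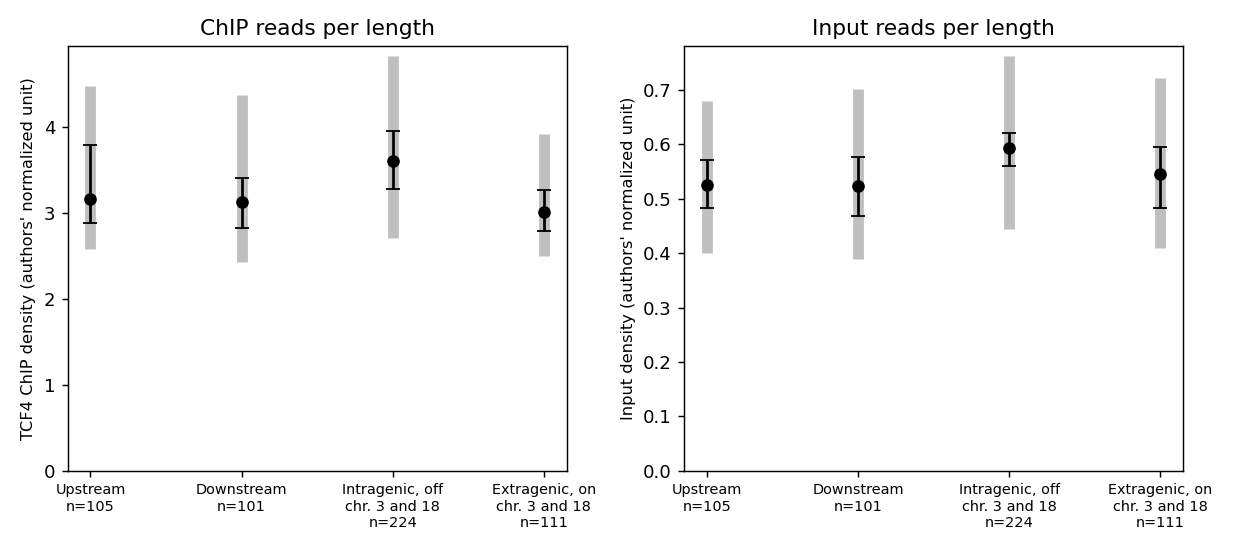
ChIP (left) and input (right) read density in the authors' normalized unit for upstream and downstream peaks off chromosomes 3 and 18, and for intragenic and chromosome 3 and 18 extragenic peaks. Points are medians with 95% order-statistic intervals and grey bars span the quartiles: input medians are 0.526 upstream, 0.523 downstream and 0.593 in intragenic peaks.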

How the data were processed

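Per the submitters' processing notes, the build was hg19 and the tools included BWA and GATK, whose roles are not stated. No source used here names the peak caller. Per the labels' protocols, spike-in chromatin was added, and whether it entered the scaling is not given. Per peak, the authors deposited counts of reads in the ChIP and in the input. The column marked IC was taken as the input, the other of 2 libraries. Their deposited log2 ratio was that of (ChIP reads + 1) to (input reads + 1) in 206 of 206 peaks (tolerance 1e-06), and their deposited normalized score, also a log2 ratio, added a scaling of 1.31-fold. Their deposited signal is reads per length times 1 constant per library, whose unit is not stated. Deposited −log10 p-values were not used.

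The table had 662 lines for 661 intervals, and the repeated line was dropped. Folds with exact 95% intervals, medians with order-statistic intervals and exact binomial shares were computed (Python 3.11.15, SciPy 1.17.1, pandas 2.3.3) and checked on simulated data. With 1 library of each kind there is no replicate error and no test. Near means up to 50000 bp from the TSS. Named were the 6 peaks of highest ratio per side with at least 10 input reads, promoter-class peaks, the 5 farthest per side, genes with at least 4 peaks, the 3 widest, narrowest and lowest, and listed genes. Other names, such as ZNF267, HADH and UHRF1, were chosen after their values were seen. The members and lists were chosen with earlier results of these data known. The B cell receptor list is not reported here as a whole. Of 113 gene names, 108 were current and all matched with older names in RefSeq (GRCh38.p14), which also gave the promoters. Alternatives were a higher score limit, at least 10 input reads, an added read, genes counted once, fixed width and other distance limits.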

Additional observations from a re-analysis of the deposited data

How the results depend on the processing

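Of 40 alternatives, 25 gave a value inside the 95% interval of the main one. Restricting to peaks with a score at or above the median of all peaks gave medians of 9.49-fold upstream, 8.17-fold downstream, 8.44-fold near and 9.29-fold far, higher by construction. Peaks of 300 to 600 bp had medians of 5.38-fold upstream, 5.55-fold downstream and 5.12-fold near. The cause was not tested. The share of near peaks was 14.6% with a limit of 10000 bp, 78.6% with 100000 bp and 70.9% when measured from the nearer gene border. The lower bound of the fold was above 1 in 100% of the peaks (all 206) and above 4 in 44.7%. Chosen after the data were seen, leaving out PITRM1 gave a summed 7.90-fold for upstream far peaks, and leaving out PITRM1 and CDKN3 7.57-fold. Leaving out both gave 7.68-fold for upstream peaks of Up genes. No immunoglobulin heavy chain peak was among the members, so that alternative changed nothing. No paired analysis was possible because neither the ChIP nor the input was replicated. Depth was lowest in 24 peaks with fewer than 10 input reads, and ZNF267 with 2 had the widest interval (9.51 to 305).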

Other observations

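Extragenic peaks of 3 genes outside the lists, chosen after their values were seen, add to those described. APOBEC3G, which encodes a cytidine deaminase that restricts retroviruses and was marked Down, had an upstream peak of 93 ChIP and 17 input reads (7.16-fold, 4.24 to 12.8) and a downstream peak of 271 and 45 (7.89-fold, 5.74 to 11.1). ANXA6, an annexin gene also marked Down, had 97 and 20 reads upstream (6.35-fold, 3.90 to 10.9) and 157 and 24 downstream (8.57-fold, 5.55 to 13.8). USP1, a deubiquitinase gene of DNA repair, had 2 upstream peaks of 8.98-fold each, with 144 ChIP and 21 input reads at 4.95 kb and 96 and 14 at 73.9 kb.

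Peak borders followed a grid in part. Start coordinates of 129 of the 206 extragenic peaks (62.6%, 55.6 to 69.2) fell 1 base past a multiple of 25 bp, and 123 of 224 intragenic peaks (54.9%, 48.1 to 61.5) did so. Among extragenic peaks, those on the grid had a median ChIP density of 2.92 (2.71 to 3.16) and input density of 0.468 (0.421 to 0.502), and the 77 off the grid 4.15 (3.28 to 4.50) and 0.620 (0.553 to 0.688). Their median folds were 6.55 (5.94 to 7.62) on the grid and 6.25 (5.57 to 7.28) off it. Among intragenic peaks the input densities were 0.499 (0.455 to 0.548) on the grid and 0.723 (0.653 to 0.782) off it. Their median folds, 7.20 (6.62 to 7.79) on the grid and 5.77 (4.87 to 6.14) off it, did not overlap in their intervals, unlike those of the extragenic peaks.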
